A study of Mus musculus with 8 samples.

Results

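Females were compared with males among C57BL/6J Min/+ mice kept on a Western-type diet, with RNA of the small intestine. The comparison rested on 4 single-colour (Cy3) microarrays, 2 of females and 2 of males, of the 8 arrays of the series. All 4 groups of the series carried the Min mutation of the Apc tumour suppressor gene, and the groups compared here also shared the diet, whose fat was 66.4% milk fat and 33.6% rapeseed and sunflower oil. Feeding is given as 18 months, and each array held RNA of 1 to 3 mice. Whether the 2 arrays of a sex came from different mice is not in the labels. The p-values thus reflect the variation between arrays alone, part of which can be technical. The arrays are called male 1, male 2, female 1 and female 2 below. A signal is given as log2 of the processed fluorescence minus the array's 75th percentile, so 0 is the 75th percentile itself.

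Genes were kept where a named autosomal probe was well above background on all 4 arrays, which left 15615 of 39429 probes. With the brightest probe taken for each gene, 12289 genes were tested. A further group of genes had signal in 1 sex alone and is described apart, because the requirement of all 4 arrays removes it.

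Loss of Apc function releases beta-catenin, which drives crypt-like growth in the intestinal epithelium and leads to adenomas in Min mice. Adenomas and injured mucosa switch on a set of fetal-type and regenerative genes, among them Clu, Anxa1 and Ly6a. The healthy epithelium absorbs sugar and fat, oxidises fatty acids and makes antimicrobial lectins. It can also present antigen on class II molecules. Sex hormones, bile acids, diet fat and local immune cells all act on these programmes.

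For 3 Y-linked genes the levels matched the labels. Ddx3y, an RNA helicase gene, measured -0.93 and -0.67 on the male arrays and -7.56 and -7.47 on the female arrays, where it was not well above background. Eif2s3y, a translation factor subunit gene, measured 2.14 and 2.45 in males against -5.58 and -7.28 in females, and Uty measured -2.95 and -2.72 against -7.55 and -7.47. Xist was not well above background on any of the 4 arrays and could not serve as a check. The Y-linked Kdm5d went against its labels: it was not well above background on either male array (-7.97 and -7.44) and was on female 1 (-5.43), but not on female 2 (-7.62). Enterocyte markers had a median log2 difference, female minus male, of 0.032 over 27 of 30 listed genes. Relative to the mean of the 4 arrays they averaged -0.190 and 0.079 on the males and 0.312 and -0.201 on the females. Without female 2, 21 of the 27 were higher in females, with a median of 0.151.

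The 4 arrays did not separate by sex. The 75th percentile of the signal ran from 597 to 901.8, with male 1 the brightest, and 55.1% to 61.5% of probes were well above background. The pair most alike was male 2 with female 1 (Pearson r = 0.9937 over genes of 1 array pair, 235 genes more than 1 log2 apart). The 2 males gave r = 0.9891 (489 genes) and the 2 females r = 0.9848 (703 genes). Principal component 1 held 44.7% of the variance and separated female 2, and the next held 39.5% and separated male 1. Male 1 and female 1 shared a slide. Male 2 lay on a slide of its own, scanned on the same day, and female 2 on another slide scanned on another day. The value within slide 1 is therefore female 1 minus male 1.

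By limma's moderated test with Benjamini-Hochberg adjustment, 0 of 12289 genes passed an adjusted p of 0.05 (0% called), and the smallest adjusted p was 0.287. At an unadjusted p under 0.05 there were 267 genes (2.17%), of which 100 were higher in females (0.814%) and 167 higher in males (1.36%). Both values of 1 sex lay above both of the other for 1545 genes that were higher in females (12.6%) and 1430 that were higher in males (11.6%). The median difference over all genes was 0.021, and 53.8% of genes were higher in females. More than 1 log2 separated the means of 54 genes that were higher in females and 85 that were higher in males. An exact permutation test of 2 arrays against 2 has 6 assignments and cannot give a two-sided p below 0.333, so none is given for single genes. Without male 2, 15 genes passed the adjusted threshold by limma, without female 1, 7 genes, without female 2 only Ppm1n, a phosphatase gene, and without male 1 none did. The array left alone in its sex was then assumed to vary like the other sex. At an unadjusted p under 0.05, 76 genes were higher in males without male 1, against 358 without male 2 and 463 without female 1. Genes higher in females numbered 97 without male 1 and 232, 436 and 233 without male 2, female 1 and female 2. Genes below are therefore described as higher or lower with their values, and none of them passed the adjusted threshold on this scale.

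The 2 genes with the smallest p-values, Anxa8 and Krt14, are active in regenerating or stratified epithelium, and both were higher in males. Anxa8, an annexin gene on chromosome 14 that is active in stratified and fetal-type epithelium, measured -0.18 and -0.92 in males and -3.68 and -3.34 in females. The sexes were far apart and the arrays within a sex were close. Anxa8 was 7.78-fold higher in males (log2 -2.96 ± 0.32 SE, n = 2 arrays per sex). By limma its adjusted p was 0.287 (unadjusted 4.26e-05). A dimmer Anxa8 probe gave -1.33. Krt14, the basal keratin gene on chromosome 11, measured -1.31 and -0.90 in males against -3.42 and -3.80 in females. It was 5.66-fold higher in males (log2 -2.50 ± 0.27 SE; limma adjusted p = 0.287). Within slide 1 the differences were -3.50 for Anxa8 and -2.10 for Krt14. When each array was scaled to its median in place of its 75th percentile, 16 genes passed the adjusted threshold by limma, and both were among them.

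Anxa1, an annexin gene that marks regenerating crypts, measured 1.74 and 0.67 in males and -1.26 and -0.70 in females (log2 -2.19 ± 0.40 SE). Sox17, a transcription factor gene of endoderm and endothelium, measured -1.12 and -2.64 in males and -4.62 and -4.36 in females (log2 -2.60 ± 0.48 SE, 6.08-fold). For both, the males were spread wider than the females, and each male lay above each female. Il1rl1, the receptor of the alarmin IL-33, was 4.11-fold higher in males, at -1.94 and -3.01 against -4.14 and -4.88. Its ligand gene Il33 measured 0.79 and -0.01 in males and 2.14 and -0.01 in females. Cdkn2a, the locus of the growth inhibitors p16 and Arf, measured -2.90 and -3.04 in males and -4.29 and -4.55 in females, with little spread within a sex. Mal, a membrane protein gene of apical sorting, was 2.91-fold higher in males, and the dermokine gene Dmkn 2.58-fold higher.

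**Figure D1:**
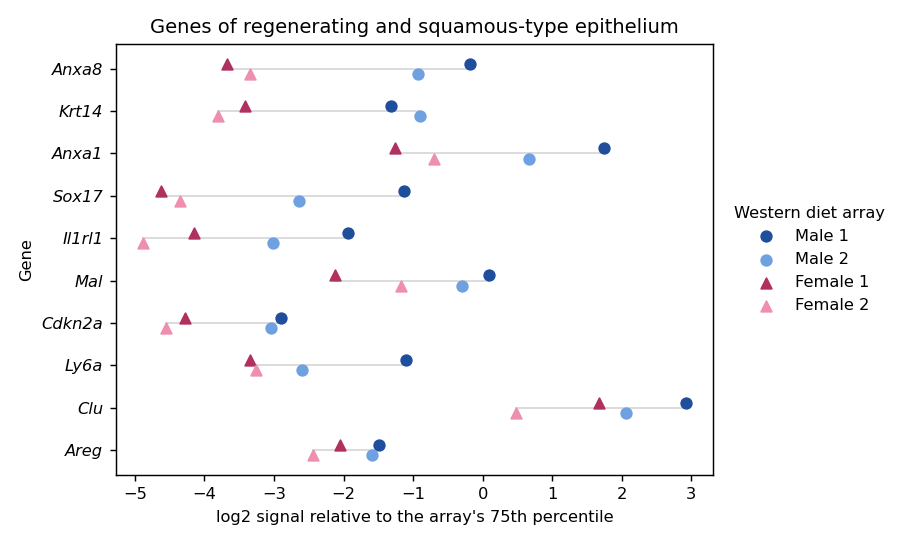
Log2 signal relative to the array's 75th percentile (horizontal axis) of 10 genes on the 4 Western diet arrays, with males as circles and females as triangles. The genes were picked with values in view, and Il33, Krt5 and Krt13, whose sexes overlapped, are not drawn. Both males thus lie to the right of both females for every gene drawn, and the gap is widest for Anxa8 and Krt14.

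Among regenerative and adenoma-associated genes as a list, 18 of 27 were tested. Of these, 15 were higher in males, 9 of them without overlap, against 11.6% of all genes. An unadjusted p under 0.05 was reached by 6, all higher in males, against 1.36% of all genes. The list median was -0.464, against 0.021 over all genes. Clu, which encodes clusterin and marks revival stem cells, measured 2.92 and 2.06 in males and 1.67 and 0.48 in females (log2 -1.42 ± 0.46 SE). Ly6a, the surface antigen Sca-1 of fetal-type epithelium, measured -1.11 and -2.60 in males and -3.35 and -3.26 in females (log2 -1.45 ± 0.47 SE). Without male 1 its difference was -0.70. Areg, which encodes the growth factor amphiregulin, was 1.63-fold higher in males. Without female 2, 11 of the 18 genes of this list were higher in males and 7 in females, with a median of -0.379. The summed linear signal of the list was 359 and 437 in males and 429 and 280 in females, so the sexes overlapped.

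Genes of stem cells and Wnt feedback did not share that direction. Of 23 tested, 11 were higher in females and 12 in males, with a median of -0.018. The stem cell receptor gene Lgr5 measured -1.89 and -1.64 in males and -2.69 and -0.64 in females, so the females spanned both males. Axin2, a Wnt feedback gene, had a difference of -0.49 ± 0.27 SE. Apcdd1, a Wnt inhibitor gene, was 1.68-fold higher in females (log2 0.75 ± 0.24 SE). Krt14 was not joined by most genes of squamous epithelium. Krt5, its usual partner, had a difference of -0.09 and Krt13 of -0.01, while Krt6a had signal in males alone and Krt15 in females alone. The squamous and stomach list, drawn up after values were seen, had 11 of 13 tested members higher in males with a median of -0.093. Of these, 2 had an unadjusted p under 0.05, Krt14 and Dmkn. Without female 2 the list turned, with 8 of 13 higher in females and a median of 0.056. Its summed linear signal was 8.37 and 8.16 in males and 8.18 and 7.30 in females.

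Several genes of mucosal defence were higher in males, although their list as a whole was divided. Serum amyloid A proteins are acute-phase proteins that the epithelium makes in response to microbes and cytokines. Saa1 measured 5.64 and 2.32 in males and 0.28 and 0.94 in females, and Saa2 measured 4.84 and 1.47 against -0.89 and -0.09. Male 1 was far above the other arrays for both genes, and male 2 still lay above both females. The differences were -3.37 ± 0.95 SE for Saa1 (10.3-fold, limma adjusted p = 1) and -3.65 ± 0.97 SE for Saa2 (12.5-fold). Without male 1 they were -1.71 and -1.96. Because the genes are near copies, their probes may read each other's transcripts and they are not independent.

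The promoter windows of Saa1 and Saa2 are shown because these genes varied together across the arrays. Each window runs from 250 bases before to 50 bases after the RefSeq gene start (GRCm38.p6), on the gene's strand. Saa1 lies at chr7:46742931-46743230 (minus strand) and Saa2 at chr7:46751583-46751882 (plus strand). Capitals mark a match to TTGCNNAA, the core of a C/EBP site, searched on both strands. It begins 182 bases before the start in Saa1 and 183 in Saa2, and 10.8% of 32851 RefSeq promoter windows hold such a match.
Saa1: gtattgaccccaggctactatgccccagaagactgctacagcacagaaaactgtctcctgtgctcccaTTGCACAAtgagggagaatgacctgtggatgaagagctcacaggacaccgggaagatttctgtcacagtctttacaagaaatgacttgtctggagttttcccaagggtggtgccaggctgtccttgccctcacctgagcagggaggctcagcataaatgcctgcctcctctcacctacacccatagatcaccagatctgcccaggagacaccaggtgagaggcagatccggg
Saa2: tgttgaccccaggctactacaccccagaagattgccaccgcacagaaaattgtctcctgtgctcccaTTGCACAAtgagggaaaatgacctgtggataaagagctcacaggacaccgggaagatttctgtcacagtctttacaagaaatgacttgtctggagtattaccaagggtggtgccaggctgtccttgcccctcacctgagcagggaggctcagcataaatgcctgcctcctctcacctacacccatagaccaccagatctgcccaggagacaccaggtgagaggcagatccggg
The windows were identical at 287 of 301 aligned columns (95.3%). A match describes these letters and says nothing of a factor's binding.

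The Reg lectin and serum amyloid list, which includes Saa1 and Saa2, was divided. Of 14 tested, 8 were higher in males and 6 in females, with a median of -0.078. The 5 with an unadjusted p under 0.05 (1.36% of all genes in that direction) were all higher in males without overlap (11.6% of all genes). They were Saa1, Saa2, Duoxa2, Reg3g and Dmbt1. Without female 2 the list turned, with 9 of 14 higher in females and a median of 0.204. Duoxa2, the maturation factor of the hydrogen peroxide-producing oxidase Duox2, measured 4.80 and 4.88 in males against 3.30 and 2.36 in females (log2 -2.01 ± 0.34 SE, 4.03-fold). A further Duoxa2 probe gave -1.99. Reg3g, a lectin that kills Gram-positive bacteria, measured 8.42 and 7.78 in males and 6.79 and 6.98 in females (log2 -1.22 ± 0.29 SE). Its neighbour in the family Reg3b, at 8.60 and 8.96 in males and 8.91 and 8.49 in females, did not share the difference (log2 -0.08 ± 0.27 SE). Dmbt1, a mucosal scavenger receptor gene, was 2.80-fold higher in males at 7.51 and 6.08 against 5.28 and 5.33. Its log2 difference without male 1 was -0.77. Gpx2, the glutathione peroxidase of the gut epithelium, measured 7.44 and 7.78 in males and 6.64 and 6.57 in females (log2 -1.003 ± 0.241 SE).

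Transcripts of 6 genes for class II chains, the invariant chain and peptide-loading factors were lower in females. Class II molecules show peptides to CD4+ T cells and are made by B cells, dendritic cells, macrophages and interferon-exposed epithelium. H2-Ab1, the beta chain of I-A, measured 7.81 and 7.53 in males and 6.62 and 6.69 in females (log2 -1.01 ± 0.24 SE, 2.02-fold). H2-Aa, its alpha chain, measured 4.34 and 3.33 in males and 2.18 and 2.91 in females (log2 -1.29 ± 0.41 SE). H2-Eb1, the beta chain of I-E, had a difference of -0.65 ± 0.23 SE, and Cd74, the invariant chain that guards the peptide groove, -0.96 ± 0.29 SE. H2-DMa and H2-DMb1, which load peptides, had -0.90 ± 0.30 SE and -1.15 ± 0.30 SE. For these 6 of the 13 tested class II genes both males lay above both females (11.6% of all genes). The reverse held for 1 (12.6% of all genes). The 6 were also those with an unadjusted p under 0.05 in the male direction, so their lack of overlap is no separate result.

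H2-Oa and H2-Ob form the inhibitor of peptide loading, which is typical of B cells, and they ran the other way. H2-Oa measured -3.36 and -4.16 in males and -1.999 and -3.135 in females (log2 1.20 ± 0.44 SE), and H2-Ob had 0.89 ± 0.43 SE. Over the whole list, 13 of 18 genes were tested and 9 were higher in males, with a median of -0.486. By unadjusted p under 0.05 there were 6 higher in males (1.36% of all genes) and 1 in females (0.814%). In bulk tissue, fewer cells of a type and less RNA per cell cannot be told apart. Lists of cells that bear class II gave the following values beside this. Of 27 tested macrophage and dendritic cell genes, 19 were higher in females, and of 12 B and plasma cell genes, 7. The summed linear signal of the macrophage list was 139 and 105 in males and 134 and 85 in females, and that of the B and plasma cell list 184 and 127 against 127 and 128. Without female 2, 7 of the 12 B and plasma cell genes were higher in males, with a median of -0.043 in place of 0.168. The part of these cells in the class II differences was not tested.

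The promoters of 3 class II genes are shown because 2 of them were lower in females and H2-Oa was higher. They are the RefSeq windows of H2-Aa at chr17:34287774-34288073 (minus strand), H2-Eb1 at chr17:34305617-34305916 (plus strand) and H2-Oa at chr17:34092129-34092428 (plus strand), all GRCm38.p6. Capitals mark a match to CTGATTGG, the core of the Y box of class II promoters, searched on both strands. It begins 51, 62 and 46 bases before the start.
H2-Aa: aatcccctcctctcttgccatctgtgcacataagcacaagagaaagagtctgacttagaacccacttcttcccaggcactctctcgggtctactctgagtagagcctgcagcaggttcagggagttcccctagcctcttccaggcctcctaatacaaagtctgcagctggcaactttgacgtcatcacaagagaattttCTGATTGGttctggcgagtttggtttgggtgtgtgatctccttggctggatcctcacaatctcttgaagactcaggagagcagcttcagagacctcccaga
H2-Eb1: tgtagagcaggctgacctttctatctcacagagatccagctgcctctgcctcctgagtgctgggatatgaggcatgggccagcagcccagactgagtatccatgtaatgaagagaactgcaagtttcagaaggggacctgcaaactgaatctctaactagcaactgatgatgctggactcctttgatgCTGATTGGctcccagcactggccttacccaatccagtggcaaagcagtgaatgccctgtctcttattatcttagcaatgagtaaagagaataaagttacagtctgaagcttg
H2-Oa: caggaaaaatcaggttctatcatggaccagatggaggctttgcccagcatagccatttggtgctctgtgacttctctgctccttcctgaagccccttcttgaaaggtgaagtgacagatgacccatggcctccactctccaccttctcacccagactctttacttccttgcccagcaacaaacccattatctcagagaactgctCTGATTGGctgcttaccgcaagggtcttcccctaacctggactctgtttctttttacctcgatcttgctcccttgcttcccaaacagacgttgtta
The match is present in 1346 of 32851 windows (4.1%), and it stands in genes of both directions. The windows of H2-DMa, H2-DMb1 and H2-Ob hold no match to these letters, and H2-Ab1 was not matched to a window.

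Mast cell proteases were higher in males. Mcpt1, the protease of mucosal mast cells, measured 0.53 and -0.80 in males and -1.51 and -2.24 in females (log2 -1.75 ± 0.47 SE, 3.36-fold). Mcpt2 and Mcpt4 were 2.91-fold and 3.01-fold higher in males. Without male 1 the log2 differences of Mcpt1, Mcpt2 and Mcpt4 were -1.08, -0.76 and -1.02. These proteases are close paralogs whose probes may read each other, and they are not independent measurements. Fcer1a, the binding chain of the IgE receptor, had signal above background in males alone, with its bound given among the genes of that kind. Cpa3, a further mast cell protease gene, measured -3.24 and -4.91 in males and -5.66 and -5.00 in females, where 3 of the 4 arrays were well above background. Tpsb2, a tryptase gene, had -0.42 and Kit, the mast cell growth factor receptor, -0.14. Of 13 tested granulocyte and mast cell genes, 8 were higher in males and 3 of these had an unadjusted p under 0.05 (1.36% of all genes), which were the 3 paralogous proteases Mcpt1, Mcpt2 and Mcpt4.

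**Figure D2:**
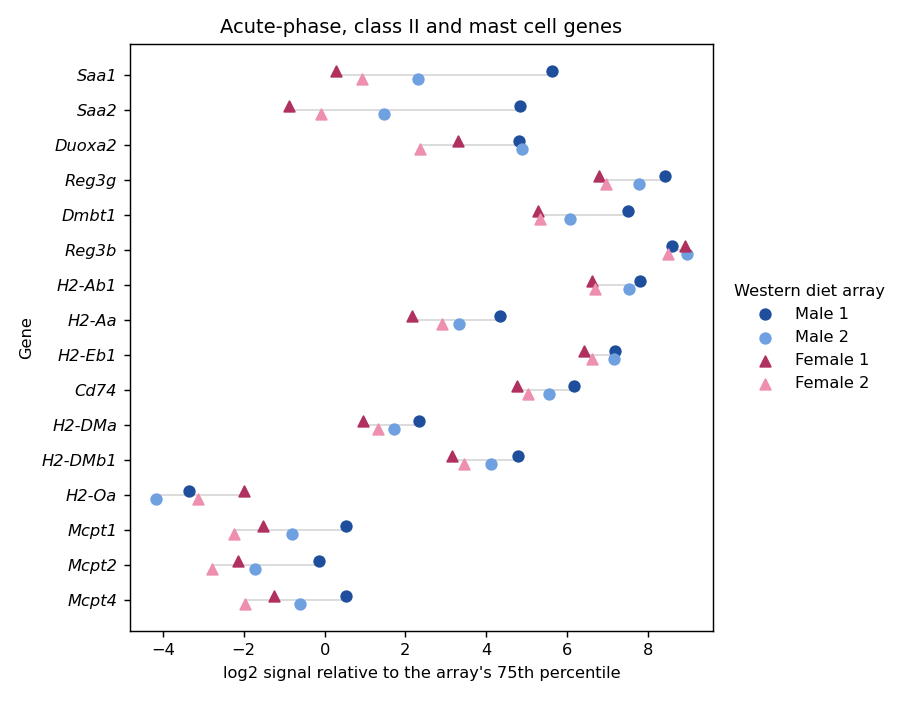
Log2 signal relative to the array's 75th percentile (horizontal axis) of acute-phase, class II and mast cell genes on the 4 Western diet arrays, with males as circles and females as triangles. The genes drawn were picked with values in view. Both males lie right of both females for every gene except Reg3b, where the sexes overlap, and H2-Oa, where both females lie right; male 1 is far out for Saa1 and Saa2.

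Most interferon response genes were higher in males by small differences. Of 40 tested genes 32 were higher in males, 15 of them without overlap (11.6% of all genes), and the median was -0.272. Relative to the mean of the 4 arrays the list averaged 0.363 and 0.009 on the males and -0.014 and -0.359 on the females, so male 2 and female 1 were level. Its summed linear signal was 220 and 214 in males and 225 and 170 in females. Igtp, an interferon-inducible GTPase gene, measured 2.58 and 0.52 in males and 0.22 and -0.20 in females (log2 -1.54 ± 0.62 SE), and its difference without male 1 was -0.51. Ifit2, an antiviral RNA-binding protein gene, had -1.07 ± 0.31 SE and Usp18, which limits interferon signalling, -1.14 ± 0.41 SE. Of the 40 genes, 24 were higher in males without female 2, with a median of -0.071. Class I and immunoproteasome genes had 19 of 26 higher in males and a median of -0.148. Of 26 T cell and intraepithelial lymphocyte genes, 18 were higher in males with a median of -0.057, and the granzyme gene Gzma had -0.76 ± 0.31 SE. Without female 2, 16 of these 26 were higher in females, with a median of 0.060.

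Most tested genes of sugar handling were higher in females. Slc5a4a, a sugar-transporter relative of the sodium-glucose carriers, measured 1.61 and 1.60 in males and 4.04 and 2.46 in females (log2 1.65 ± 0.49 SE, 3.13-fold). Slc2a2, the GLUT2 transporter through which sugar leaves the enterocyte, measured 0.69 and 0.62 in males and 2.70 and 1.07 in females (log2 1.23 ± 0.50 SE). For both genes female 1 was the highest array and female 2 still lay above both males. Fbp1, a gluconeogenic phosphatase gene, was 1.61-fold higher in females. In this list 17 of 21 tested genes were higher in females, 8 without overlap (12.6% of all genes), with a median of 0.236. The summed linear signal of the list was 568 and 718 in males and 1050 and 636 in females, so female 2 lay below male 2. By unadjusted p under 0.05 there were 3 genes higher in females (0.814% of all genes) and 1 higher in males (1.36%), the basal glucose transporter gene Slc2a1 (log2 -0.67 ± 0.27 SE). The main brush-border sugar genes were level, with 0.03 ± 0.34 SE for the sodium-glucose transporter gene Slc5a1 and 0.02 ± 0.25 SE for sucrase-isomaltase, Sis.

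Most tested genes of fatty acid oxidation were modestly higher in females. In this list 34 of 47 tested genes were higher in females, 12 of them without overlap (12.6% of all genes), and the median was 0.151. Plin2, which coats lipid droplets, measured 2.59 and 2.97 in males and 3.34 and 3.43 in females (log2 0.60 ± 0.25 SE). Acaa2, the last enzyme of the mitochondrial oxidation cycle, had 0.53 ± 0.26 SE. Cpt1a, which admits fatty acids to the mitochondrion, had -0.003 ± 0.286 SE. Angptl4, an inhibitor of lipoprotein lipase, was 1.49-fold higher in males.

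Of 28 fat absorption genes 22 were higher in females with a median of 0.148. Only 1 was apart in the female direction and 1 in the male direction (12.6% and 11.6% of all genes). Relative to the mean of the 4 arrays the list averaged -0.347 and 0.135 on the males and 0.307 and -0.094 on the females, so female 2 lay below male 2. Slc27a2, a fatty acid transport and activation protein gene, measured 3.46 and 4.17 in males and 5.003 and 4.38 in females (log2 0.88 ± 0.34 SE). Apoa4, an apolipoprotein of chylomicrons, measured 4.02 and 4.89 in males and 6.53 and 4.08 in females, so the sexes overlapped. Bile acid genes gave opposite directions. Fgf15, the hormone by which the ileum restrains bile acid synthesis, measured -1.10 and 0.81 in males and 0.91 and 2.20 in females (log2 1.70 ± 0.67 SE, 3.24-fold). Male 2 and female 1 were only 0.095 log2 apart. Slc10a2, which takes bile acids up in the ileum, measured 3.78 and 2.33 in males and 1.83 and 1.81 in females (log2 -1.24 ± 0.45 SE). Slc51b, a subunit of the exporter, had -0.70 ± 0.23 SE, and the ileal bile acid-binding protein gene Fabp6 had 0.02 ± 0.26 SE. The labels do not give the stretch of intestine sampled. The list of proximal and distal intestine genes had a median of 0.020 with 12 of 23 higher in females, and -0.086 without female 2, and its part in these differences was not tested.

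Most genes for enzymes that handle foreign compounds were higher in females by small differences. Of 22 glutathione transferase genes 17 were higher in females, 5 without overlap (12.6% of all genes) and none apart in the male direction, with a median of 0.156. Gstm2 measured 0.22 and 0.89 in males and 1.09 and 1.64 in females (log2 0.80 ± 0.32 SE). These genes are near copies and may share signal. Of 39 cytochrome P450 and related genes 27 were higher in females, with a median of 0.234, but 3 were apart in the female direction and 4 in the male direction (12.6% and 11.6% of all genes). Ahrr, which represses the receptor for dioxin-like compounds, was 1.61-fold higher in females. Male 1 was the lowest array on average for both lists, at -0.461 and -0.397 log2 relative to the mean of the 4 arrays. Male 2 averaged 0.225 for the transferases, against -0.023 and 0.259 in females, and 0.179 for the P450 list, against 0.065 and 0.154. The summed linear signal of the transferases was 602 and 885 in males and 730 and 786 in females. That of the P450 list was 1000 and 1640 against 1450 and 1290, so male 2 had the highest sum in both lists. Aadac, an esterase gene of drug and lipid metabolism, measured 2.35 and 2.66 in males and 4.26 and 3.56 in females (log2 1.40 ± 0.31 SE, 2.64-fold).

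**Figure D3:**
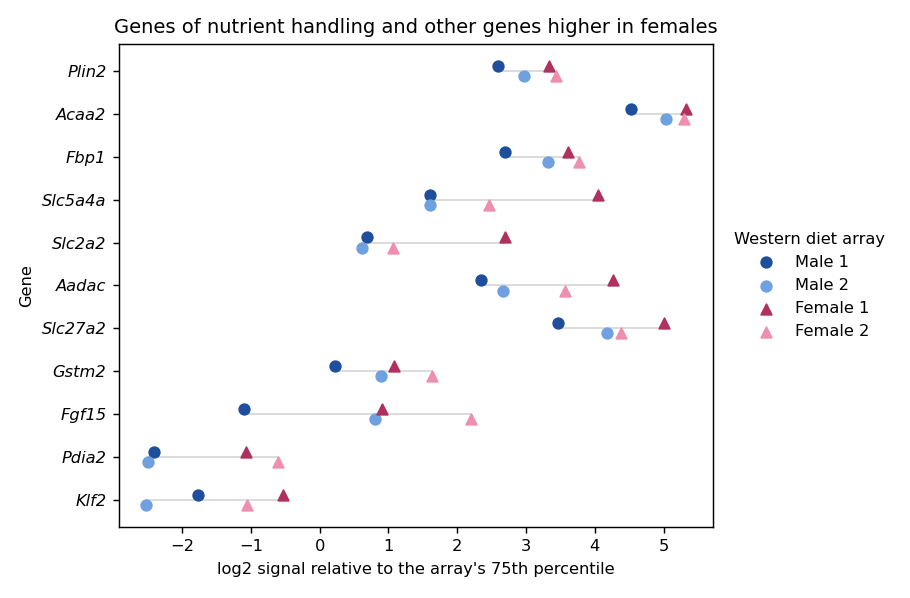
Log2 signal relative to the array's 75th percentile (horizontal axis) of 11 genes that were higher in females on the 4 Western diet arrays, with males as circles and females as triangles. The genes drawn were picked with values in view. Both females lie right of both males for every gene drawn; for Fgf15 the gap is smallest, and for Slc5a4a and Slc2a2 female 1 lies far right.

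The smallest p in the female direction belonged to Pdia2, a disulfide isomerase gene that is prominent in exocrine pancreas. It measured -2.41 and -2.49 in males and -1.07 and -0.61 in females (log2 1.61 ± 0.26 SE, 3.06-fold; limma adjusted p = 1). A further Pdia2 probe gave 1.59. Pancreatic acinar markers had a median of 0.301 over 11 tested genes, of which 9 were higher in females, with a summed linear signal of 787 and 1010 in males and 1140 and 842 in females. Their part in the Pdia2 difference was not tested. Klf2, a transcription factor gene of quiescent lymphocytes and endothelium, measured -1.76 and -2.52 in males and -0.54 and -1.06 in females (log2 1.35 ± 0.34 SE). Cd209a, a lectin gene of dendritic cells, was 2.59-fold higher in females, at -4.70 and -4.91 against -3.82 and -3.05. With Marco, a scavenger receptor gene, and Batf3, a factor of cross-presenting dendritic cells, it made up the 3 macrophage and dendritic cell genes with an unadjusted p under 0.05, all higher in females (0.814% of all genes). Lect2, a secreted chemotactic protein gene, was 2.90-fold higher in females and Idh3a, a subunit of the TCA cycle dehydrogenase of isocitrate, 1.73-fold.

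Receptors for sex hormones did not differ beyond the spread of the arrays. Esr2, the oestrogen receptor of intestinal epithelium, measured 0.06 and -0.91 in males and -0.96 and -1.05 in females (log2 -0.58 ± 0.35 SE; 95% interval -1.41 to 0.25). Gper1, the membrane oestrogen receptor, had 0.45 ± 0.35 SE, and the oestrogen-related receptor gene Esrra 0.04 ± 0.27 SE. The glucocorticoid receptor gene Nr3c1 had -0.04 ± 0.25 SE and the mineralocorticoid receptor gene Nr3c2 0.13 ± 0.26 SE. Esr1 was well above background on 3 arrays and Pgr on 1, so these were not tested. Among 25 tested steroid receptors and enzymes 17 were higher in females with a median of 0.109, and 0 had an unadjusted p under 0.05.

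Fkbp5, a chaperone gene that steroid receptors induce, had the largest difference in the list of oestrogen and androgen response genes. It measured 3.59 and 1.93 in males and 0.49 and 0.82 in females (log2 -2.10 ± 0.51 SE, 4.29-fold). Male 1 was the highest, and without it the difference was -1.27. Of 15 oestrogen and androgen response genes 10 were higher in males with a median of -0.155, and 2 had an unadjusted p under 0.05 (1.36% of all genes), Fkbp5 and Areg. The iron-uptake receptor gene Tfrc measured 1.77 and 0.82 in males and 0.34 and -0.03 in females (log2 -1.14 ± 0.36 SE).

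Cholesterol synthesis and the folding machinery of the endoplasmic reticulum were slightly lower in females across most members. Of 28 sterol genes 23 were higher in males with a median of -0.128, and 0 had an unadjusted p under 0.05. Sqle, an early oxygenase of the pathway, had -0.68 ± 0.31 SE. Of 25 endoplasmic reticulum stress genes 21 were higher in males with a median of -0.178. Of these, 8 did not overlap (11.6% of all genes) and 0 had an unadjusted p under 0.05. Without female 2, 14 of the 25 were higher in males with a median of -0.100. Respiratory chain genes were balanced with all 4 arrays, with 25 of 51 higher in females and a median of -0.020, but without female 2, 46 of 51 were higher in females with a median of 0.188. Cell cycle genes had a median of -0.055 with all 4 arrays and -0.395 without female 2, when 32 of 33 were higher in males.

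**Figure D4:**
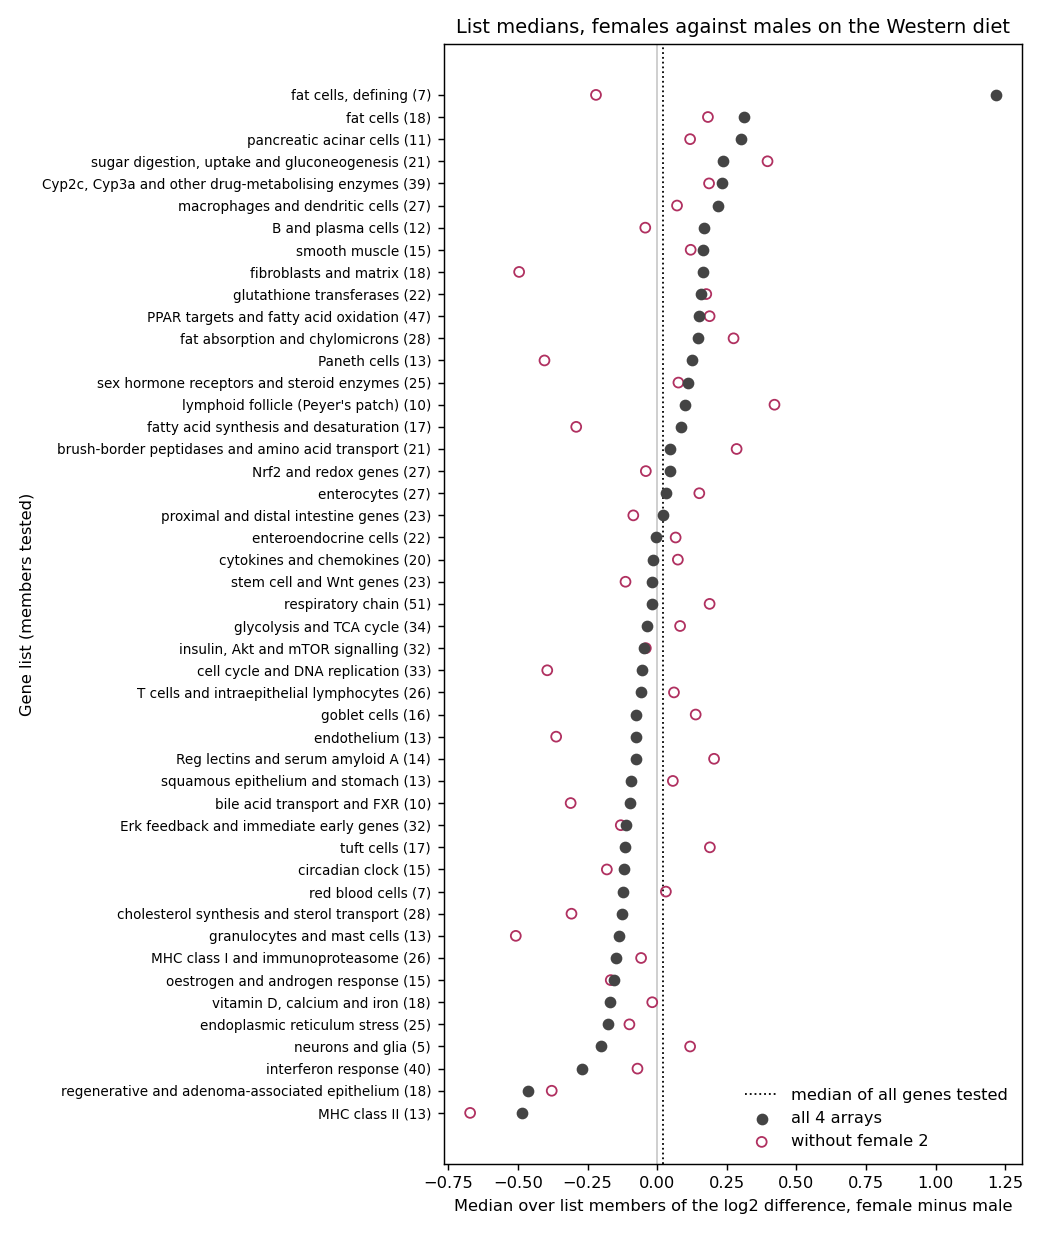
Median over the tested members of each gene list of the log2 difference, female minus male (horizontal axis), for lists with at least 5 tested members, with all 4 arrays (filled points) and without female 2 (open points). The class II and regenerative lists lie farthest left with all 4 arrays, the class II list also without female 2, and the fat cell defining genes move from 1.217 to -0.220 when female 2 is left out.

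Within slide 1, where female 1 met male 1, a gene whose sexes do not overlap must keep its direction, so the values there show sizes alone. They were -5.36 for Saa1, -1.50 for Duoxa2, -1.63 for Reg3g, -1.19 for H2-Ab1 and -2.05 for Mcpt1. In the female direction they were 2.43 for Slc5a4a, 1.91 for Aadac and 1.34 for Pdia2. With scan day as a block, which removes female 2 from the contrast, Anxa8 had -3.13, Krt14 -2.31 and H2-Ab1 -1.05.

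Fat cell genes were judged apart, because 1 array carried most of them. Cfd, the fat cell protease adipsin, measured -3.11 and -5.07 in males, -4.33 on female 1 and 3.29 on female 2. Adipoq, the hormone adiponectin, measured -6.51, -7.16, -7.61 and 0.94 in the same order and was well above background on female 2 alone. Fabp4, the fatty acid-binding protein of fat cells, measured 0.45, -1.30, -1.50 and 4.23. Female 1 lay with the males for all 3 genes, so these differences describe 1 array. Of 15 defining genes, female 2 was the highest array for 11, and their summed linear signal was 9.09 and 8.85 in males, 18.0 on female 1 and 41.3 on female 2. On female 1 the sum was raised by Cidec, a lipid droplet gene that enterocytes also express, at 3.995 against 2.54 to 2.77 on the other arrays. The median over the 7 tested was 1.217 with all arrays and -0.220 without female 2. Leaving the fat cell list out of the fit gave 100 genes higher in females and 169 higher in males at an unadjusted p under 0.05.

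**Figure D5:**
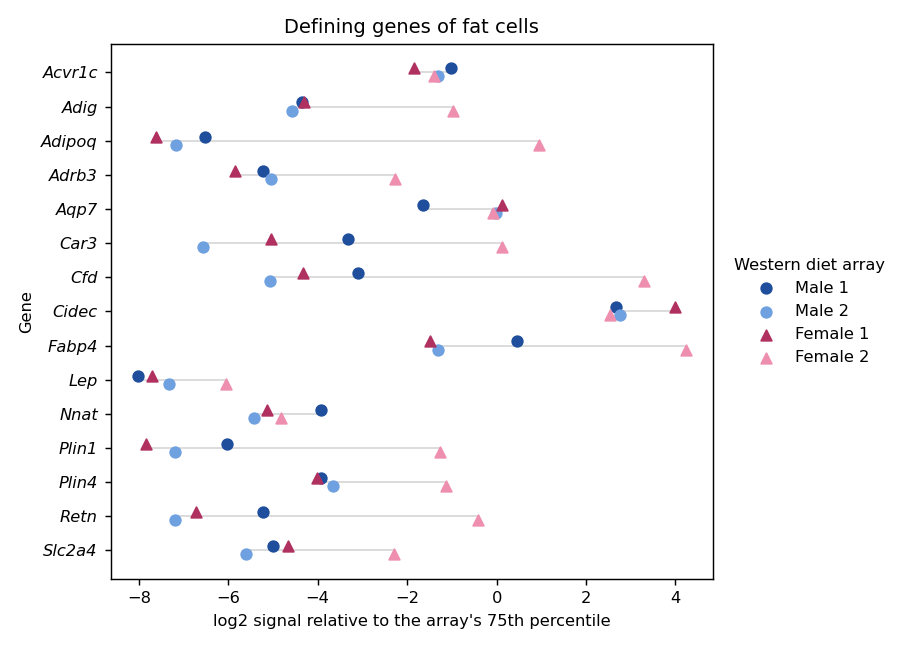
Log2 signal relative to the array's 75th percentile (horizontal axis) of the 15 defining fat cell genes on the 4 Western diet arrays, whether or not above background, with males as circles and females as triangles. Female 2 lies far right for most genes, while female 1 lies near the males for the genes other than Cidec.

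Other tissue markers also differed between arrays of the same sex. Of 17 lymphoid follicle genes, female 1 was the highest array for 11, such as the B cell gene Ms4a1 at -3.34 and -7.20 in males, -1.37 on female 1 and -5.34 on female 2. H2-Oa, Cr2 and Gp2 were also highest on female 1, and the part of the follicle genes in the H2-Oa difference was not tested. Fibroblast genes were higher on male 1 and female 2, at 0.440 and 0.531 log2 above the mean of the arrays, and lower on male 2 and female 1, at -0.531 and -0.439. Red blood cell genes were 0.683 above that mean on male 1 and between -0.574 and -0.029 on the others.

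Some genes had signal in 1 sex alone, that is, well above background on both arrays of that sex and on neither of the other. Of 19210 autosomal genes with a probe, 50 were seen in males alone and 37 in females alone. For these the fold is a lower bound, set against the dimmest signal that counted as well above background. Without male 1 the counts were 119 and 355, without male 2, 498 in males, without female 1, 150 and 305, and without female 2, 105 and 153. The bound exceeded 2-fold for 13 genes in males and 9 in females. Bpifb5, of a family of secreted lipid-binding proteins of mucosa, was at least 10.9-fold higher in males, at -1.33 and -2.87 against -7.91 and -7.75. Prl2c5, a prolactin relative, was at least 6.26-fold higher, Anxa10, an annexin gene of stomach epithelium, at least 5.84-fold and Krt6a, a keratin gene of wounded epithelium, at least 3.71-fold. Fcer1a was at least 3.30-fold higher. In females the largest bounds were at least 5.26-fold for the potassium channel subunit gene Kcns3, 2.89-fold for the glutamate transporter gene Slc1a3 and 2.56-fold for the signalling protein gene Wnt4.

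The same probes on the control diet arrays serve as a background and were not tested. On these arrays the library labelled Control female 1 carried Y-linked transcripts at the male level, with Ddx3y at -0.46, so no sex difference is drawn from them. Control female 2 had 75.6% of probes well above background, against 55.4% to 61.9% on the other control arrays. Anxa8 lay between -3.50 and -2.50 on the 4 control arrays and Krt14 between -4.03 and -2.93, so the Western males stood above all 6 other arrays for both genes. Anxa1 lay between -2.13 and -0.02, and Sox17 between -6.88 and -3.28. Saa1 measured 4.04 and 3.03 on the control male arrays and 1.56 and 1.67 on those labelled female. H2-Ab1 measured 7.21 and 7.60 against 6.98 and 6.46, and Aadac 2.61 and 2.30 against 3.39 and 4.18. Further values are given in the same order, and separation or overlap of the labelled sexes is not read as a sex difference for any gene here. Mcpt1 measured -1.72 and -2.82 against -3.11 and -1.42, and Fkbp5 -0.22 and 2.21 against 1.23 and 0.96. Fgf15 measured 2.32 and -0.69 against 1.56 and 0.83, and Pdia2 -2.77 and -3.03 against -2.88 and -0.74.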

How the data were processed

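Every file holds 1 scanned Agilent array of design 026655. Per the file headers, the spots were quantified by Feature Extraction 10.7.3.1. The column taken was the processed signal, a background-subtracted linear intensity per the file headers. The deposited files record no scaling of one array against another. Extraction used the RNeasy Mini kit, per the labels' protocols.

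Control spots and spots marked as outliers (119 to 140 per array here) were left out, no spot was saturated, and repeated probes were averaged. Log2 processed signals were set relative to each array's 75th percentile. Probe accessions were named through RefSeq gene records (GRCm38.p6), without versions. Of 39429 probes, 26412 received a symbol and 13017 did not. The array design names an older build, so gene coordinates are given only for the RefSeq promoter windows. Female and male means of the 4 Western diet arrays were compared in limma 3.58.1 (R 4.3.3; tables were handled by the package data.table, version 1.17.8), with 2 residual and 4.69 prior degrees of freedom and Benjamini-Hochberg adjustment over all genes tested. The fit was tested on simulated data. Promoters were searched with Python 3.11.15 and aligned with Biopython 1.88. The number of arrays limits the precision.

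Bounds for genes seen in 1 sex alone are the bright mean minus the mean, per array of the other sex, of a floor signal, which is the lowest well above background or, if higher, the signal of the gene's probe itself.

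The members, the 47 gene lists and the rule for named genes were chosen with earlier results of these data known, and 1 more list was added after values were seen. The rule took the 15 genes of smallest p per direction that did not overlap and had the same sign within slide 1, up to 3 members per list, every measured sex hormone receptor, and the 8 largest bounds per direction. Angptl4, Apoa4, Cfd, Cidec, Clu, Cpa3, Cpt1a, Dmbt1, Etv5, Fabp4, Fabp6, Fbp1, H2-Aa, H2-DMa, H2-Eb1, H2-Oa, H2-Ob, Il33, Kit, Krt5, Krt13, Lgr5, Ly6a, Ms4a1, Adipoq, Ppm1n, Reg3b, Saa1, Sis, Slc5a1 and Tpsb2 fell outside it and were picked once their values were known. Which genes of the rule are printed was decided with values in view, and a few genes are not reported here.

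Alternatives changed the scaling, background correction, filters, probe choice, samples, blocks and prior. The planned background correction used the median spot signal in place of the mean, which the files here did not hold.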

Additional observations from a re-analysis of the deposited data

How the results depend on the processing

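The count of 0 genes past the adjusted threshold was 16 when arrays were scaled to their median (prior degrees of freedom 46.6 against 4.69), 1 with scan day as a block over the 4 arrays, which equals leaving out female 2, and 0 to 15 when 1 array was left out. It stayed at 0 under quantile normalization, normexp, filters of at least 2 or no arrays, all chromosomes and unnamed probes, the mean of a gene's probes, the fits of all 8 arrays, a trended robust prior and without fat cell genes. The cause of these shifts was not tested. Same-numbered arrays of the sexes did not deviate together (r = -0.13 over genes, 2 pairs). With 2 pairs this cannot show whether the numbers pair them. With the replicate number as a block 15 genes passed, and 160 were higher in females at an unadjusted p under 0.05. With crossed numbers as a block 0 passed, 188 were higher in females and 201 in males.

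The 100 genes higher in females at an unadjusted p under 0.05 became 235 without a filter, 51 with all 8 arrays and scan day as a block, 233 with scan day as a block over 4 arrays and 97 to 436 when 1 array was left out. The 167 higher in males became 89 with all 8 arrays and scan day as a block, and 76 to 463 when 1 array was left out. Genes seen in 1 sex alone ranged from 54 to 355 in females and 105 to 498 in males when 1 array was left out.

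Of 85 named genes 18 changed sign under some alternative, none of them with an unadjusted p under 0.05. All named genes under that p had sexes that did not overlap. Such a gene must keep its sign within slide 1 and when 1 array is left out, as with scan day as a block over the 4 arrays. Its stable sign there is therefore no separate result. Fat cell genes changed sign within slide 1 (Cfd -1.23, Fabp4 -1.95) and with scan day as a block (Cfd -0.25, Fabp4 -1.08). Among genes near 0, median scaling gave Sis -0.009, and quantile normalization Sis -0.018 and Fabp6 -0.069. Normexp gave Fabp6 -0.022, Krt5 0.072 and Nr3c1 0.019. The mean of probes gave Cpt1a 0.11 and Nr3c1 0.032. All 8 arrays with scan day as a block gave Krt13 0.22, Lgr5 -0.12, Nr3c1 0.11, Nr3c2 -0.34 and Slc5a1 -0.12. Slide 1 alone gave Krt5 0.087, Lgr5 -0.80, Nr3c1 0.23, Nr3c2 -0.24, Reg3b 0.31 and Slc5a1 -0.32. Scan day as a block over the 4 arrays gave Fabp6 -0.026, Krt5 0.056, Lgr5 -0.93, Nr3c1 0.13, Nr3c2 -0.06 and Reg3b 0.13. When 1 array was left out, the ranges were -0.38 to 2.07 for Apoa4, -0.25 to 7.38 for Cfd, -0.18 to 1.27 for Cidec, -0.32 to 0.31 for Cpt1a, -0.27 to 2.35 for Cr2, -0.23 to 0.32 for Esrra, -1.08 to 4.66 for Fabp4, -0.201 to 0.251 for Fabp6, -0.40 to 1.75 for Il33, -0.69 to 0.42 for Kit, -0.242 to 0.056 for Krt5, -0.19 to 0.17 for Krt13, -0.93 to 1.12 for Lgr5, -0.21 to 0.13 for Nr3c1, -0.06 to 0.32 for Nr3c2, -0.29 to 0.13 for Reg3b, -0.17 to 0.20 for Sis and -0.42 to 0.49 for Slc5a1.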

Other observations

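Further gene groups had values that belong to no comparison above. Goblet cell genes, which make mucus, had a median difference of -0.076 over 16 tested genes with 11 higher in males (0.138 without female 2), and enteroendocrine genes, which encode gut hormones, -0.004 over 22. Tuft cell genes, which mark chemosensory cells, were higher in males for 14 of 17, yet the list averaged 0.581 log2 above the mean of the arrays on male 2 and -0.472 on male 1, so the 2 males were the extremes. Without female 2 the tuft list turned, with 13 of 17 higher in females and a median of 0.189. Paneth cell genes averaged 0.419 on female 2 and -0.419 on female 1. Immediate early and Erk feedback genes were higher in males for 21 of 32, with Zfp36, which shortens the life of cytokine transcripts, at -0.68 and Etv5, a target of Erk signalling, at -0.75. Amino acid and peptide uptake genes had a median of 0.047 and insulin and mTOR genes -0.048. Glycolysis and TCA cycle genes had 15 of 34 higher in females (22 without female 2), with Aldoa at -0.60 and Pfkl at -0.57, both enzymes of glycolysis and both higher in males without overlap.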
